A study of Mus musculus with 27 samples.

Results

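The fetal brains of Cav1-null mice were compared with those of C57BL/6J mice on gestational day 12 (d12), across all genes of the read-count table. The comparison holds the 6 libraries that the labels assign to these 2 strains on d12, out of 27 libraries in the series, and 19475 of the 55416 genes in the table had enough reads to be tested. C57BL/6J is a long-lived inbred strain. Cav1-null (B6.Cg-Cav1tm1Mls/J) is a short-lived congenic strain that lacks caveolin-1, so every cell of the fetus carries the null allele, and its differences from C57BL/6J may include DNA linked to the allele. Each group had 3 libraries of polyadenylated RNA from whole dissected brain. Gestation was counted from the vaginal plug as day 1, and all 6 fetuses were labelled female. The labels do not say which fetuses shared a litter, so p-values measure the spread between these libraries only. The comparison addresses which genes differ between the strains at the earliest day studied.

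Caveolae are small inward folds of the cell surface, frequent in fat cells, smooth muscle and the vessel lining, and they do not form in most cells without the coat protein caveolin-1. Caveolin-2 needs caveolin-1 to reach the cell surface, and the cavins and the EHD and pacsin proteins shape and hold the pit. In the brain at this age, radial glia divide along the ventricles, proneural factors push their daughters into the neuronal path, and vessels grow inwards from the surface.

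The libraries held 28025320 to 35026178 reads assigned to genes. The library labelled Cav1-null replicate 2 went against its label: it held 121 reads of Xist, the RNA of the inactive X chromosome, against 103005 to 147356 in the other libraries, and 3439 reads of the Y-linked gene Ddx3y against at most 2. Both strains' replicate 3 stood apart in tissue markers. Summed over the Hox list, whose genes mark hindbrain and spinal cord, Cav1-null replicate 3 had 76.6 CPM (counts scaled to a common library size) against 0.303 to 3.68 elsewhere, and its skeletal muscle markers summed to 87.5 CPM against 21.7 to 27.1. C57BL/6J replicate 3 held 104 CPM of trophoblast and decidua markers against 1.39 to 5.12 elsewhere. Forebrain patterning genes summed to 1407, 898 and 432 CPM in C57BL/6J replicates 1 to 3 and to 1058, 945 and 265 CPM in Cav1-null, so replicate 3 held the least in both strains. In bulk RNA, fewer cells of a type and less RNA per cell cannot be told apart. Where leaving out any 1 of the 6 libraries moved the median log2 fold change of a gene list by over 1.5 times and by 0.1 or more, or a count of its genes by over 1.5 times and by 2 or more, the values without that library are given, or their range where more than 3 libraries did so.

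**Figure D1:**
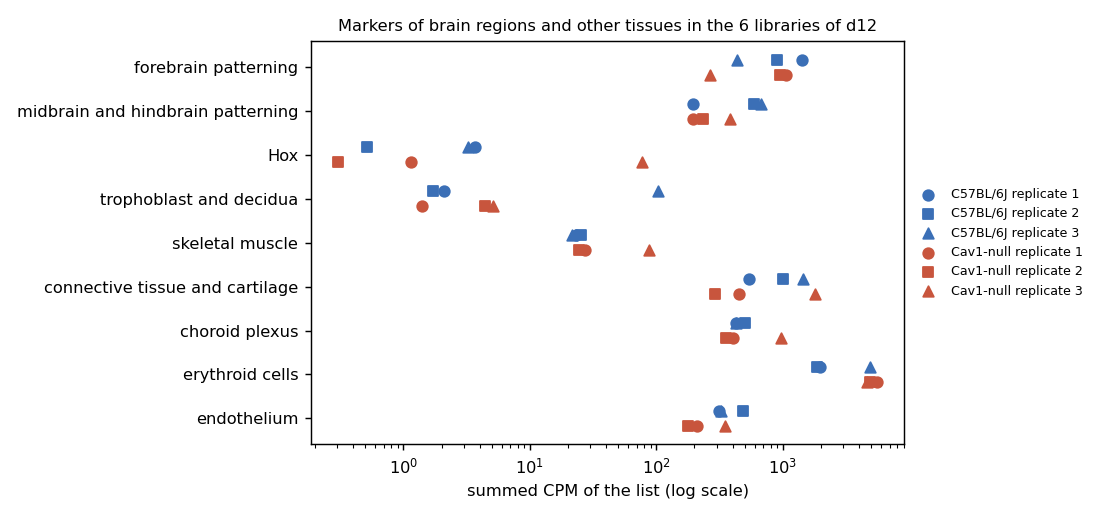
Summed CPM (unscaled, log axis, x) of marker lists (y) in the 6 libraries of d12, in blue for C57BL/6J and in red for Cav1-null, with replicates 1 to 3 as circle, square and triangle. The Hox and skeletal muscle lists are highest in Cav1-null replicate 3 (76.6 and 87.5 CPM), and the trophoblast and decidua list is highest in C57BL/6J replicate 3 (104 CPM).

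Cav1 was nearly absent from the Cav1-null libraries. Cav1 (ENSMUSG00000007655, GRCm39 chromosome 6, 17306140 to 17341451, plus strand) had 452, 604 and 326 reads in C57BL/6J replicates 1 to 3 and 2, 0 and 8 reads in Cav1-null. On the CPM scale after TMM scaling, which is used for all levels below unless stated, these were 14.5, 18.4 and 10.6 against 0.0713, 0 and 0.212 CPM. With 3 reads as the floor, the 0 reads of replicate 2 allow a level of up to 0.0910 CPM without TMM scaling. The log2 fold change of Cav1-null over C57BL/6J was -7.12 (SE 0.68, n = 3 per group). The adjusted p of Cav1 was 0.0623 by the quasi-likelihood test of edgeR and 2.16e-31 by the Wald test of DESeq2.

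Reads that span the introns of Cav1 were also nearly absent. The junction of exon 1 with exon 2 (intron 17306479 to 17307879) was crossed by 16, 37 and 15 reads in C57BL/6J and by 0 in each Cav1-null library. The junction of exon 2 with exon 3 (intron 17308045 to 17339111) was crossed by 39, 50 and 25 reads in C57BL/6J and by 0, 0 and 2 in Cav1-null. Junctions with short overhangs, few reads or reads that map to several places had been filtered by the authors, so a 0 here can also stand for reads that were taken out. Which exons the null allele lacks is not given in the sources used here. The 3 sequences that follow (GRCm39, chromosome 6, plus strand, all coding apart from the intron ends) show what these reads had to match: the end of coding exon 1 joined to exon 2 (17306449 to 17306478 and 17307880 to 17307909), exon 2 joined to exon 3 (17308015 to 17308044 and 17339112 to 17339141), and the 165 bases of exon 2 (17307880 to 17308044) with 20 bases of intron on each side. Capitals mark the 4 bases on either side of a junction in the first and second sequence, and the exon in the third.
Cav1 exon 1 joined to exon 2: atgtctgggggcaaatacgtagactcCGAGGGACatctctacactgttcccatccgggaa
Cav1 exon 2 joined to exon 3: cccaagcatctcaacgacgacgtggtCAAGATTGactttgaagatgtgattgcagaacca
Cav1 exon 2 with intron ends: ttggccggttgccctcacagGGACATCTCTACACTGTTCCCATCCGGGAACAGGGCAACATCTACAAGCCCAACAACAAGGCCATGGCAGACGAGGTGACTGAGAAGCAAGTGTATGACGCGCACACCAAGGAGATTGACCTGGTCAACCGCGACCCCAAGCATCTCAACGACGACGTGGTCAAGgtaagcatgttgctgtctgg

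The neighbours of Cav1 did not share its loss. Cav2, the gene of caveolin-2 (17281026 to 17289877, plus strand), was higher in Cav1-null. It measured 6.59, 5.16 and 6.65 CPM in C57BL/6J and 19, 14.4 and 16.9 CPM in Cav1-null, without overlap. Its log2 fold change was 1.45 (SE 0.21), with an adjusted p of 0.0998 by quasi-likelihood and 4.11e-08 by DESeq2. On d15 the log2 fold change of Cav2 was 1.45. On d17 it was 0.70 (SE 0.30, adjusted p 0.582 by quasi-likelihood), and the groups overlapped at 10.9, 25.3 and 16 CPM against 33.5, 22 and 29.2 CPM.

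Gm15581, a long non-coding RNA gene on the minus strand (17206822 to 17385603) whose span takes in Cav2 and Cav1, was named after its values were seen. It had 0, 0 and 0 reads in C57BL/6J and 70, 70 and 75 reads in Cav1-null. Its mean of 2.28 CPM in Cav1-null (unscaled, SD 0.194) is at least 23.2-fold higher than the level that 3 reads per library would give in C57BL/6J. The adjusted p was 0.0623 by quasi-likelihood, and DESeq2 gave none. On d15 it had 2, 0 and 0 reads against 75, 97 and 160, and on d17 0, 0 and 0 against 125, 91 and 161. One of its annotated exons overlaps the start of Cav2 (17281026 to 17281114). Whether counting used strand is not given in the sources used here, and without strand, reads in that overlap cannot be told apart.

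Among 163 genes tested within 20 Mb of Cav1, itself included, 25 were higher (15.3%) and 11 lower (6.75%) at an unadjusted p under 0.05, beside 8.54% and 13.5% of all genes tested. The actin capping gene Capza2, 0.295 Mb away, measured 181, 143 and 205 CPM in C57BL/6J and 244, 273 and 216 CPM in Cav1-null (log2 fold change 0.47, SE 0.17). The log2 fold changes of the closer genes Tes and Met were 0.24 (SE 0.24) and -0.13 (SE 0.45), and their groups overlapped. Gm4876, nearer than Tes and named after its values were seen, had a log2 fold change of 0.74 (SE 0.33) that did not pass the unadjusted threshold, with 0.86 on d15 and 0.91 on d17. The median log2 fold change was 0.47 over the 11 genes within 1 Mb and 0.16 over those within 20 Mb. With the trend of each library with GC content and length removed, the value of Capza2 was 0.072 and these medians were 0.23 and 0.031.

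Of the other caveolae genes few differed, and several varied more between libraries than between strains. Of 13 tested, 1 was higher (Cav2) and 3 were lower at an unadjusted p under 0.05, namely Cav1 and the membrane-bending genes Pacsin2 and Pacsin3, beside 8.54% and 13.5% of all genes tested. Pacsin3 measured 17.7, 21.1 and 20.3 CPM in C57BL/6J and 12.9, 12.5 and 12.2 CPM in Cav1-null (log2 fold change -0.65, SE 0.16, DESeq2 adjusted p 0.00501). Pacsin2 measured 35, 41.2 and 43.8 CPM against 23.7, 22.5 and 29.9 CPM (log2 fold change -0.65, SE 0.17). With the trend of each library with GC content and length removed (corrected, as described below), the values of Pacsin3 and Pacsin2 were -0.15 and -0.36, and neither passed the unadjusted threshold or was called by DESeq2. Cavin1, whose product coats the pit, measured 17.7, 34.1 and 30.6 CPM against 8.84, 9.15 and 41.8 CPM, so Cav1-null replicates 1 and 2 lay below all C57BL/6J libraries and replicate 3 above them. Cavin2, Cavin3 and Ehd2 were also highest in replicate 3 among the Cav1-null libraries. The median of the caveolae list was -0.28. The caveolae list had a median of -0.39 with 1 higher and 6 lower without C57BL/6J replicate 3, and -0.64 with 1 higher and 7 lower without Cav1-null replicate 3, while the corrected median was -0.046 with 1 higher and 1 lower. The shares over all genes tested were 10.6% higher and 17.4% lower without the former library and 8.40% higher and 12.5% lower without the latter. Nos3, the endothelial nitric oxide synthase that caveolin-1 binds, had overlapping groups (log2 fold change -0.64, SE 0.33). Cavin4, Pacsin1, Flot1 and Flot2 had log2 fold changes between -0.28 and 0.073, with overlapping groups.

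**Figure D2:**
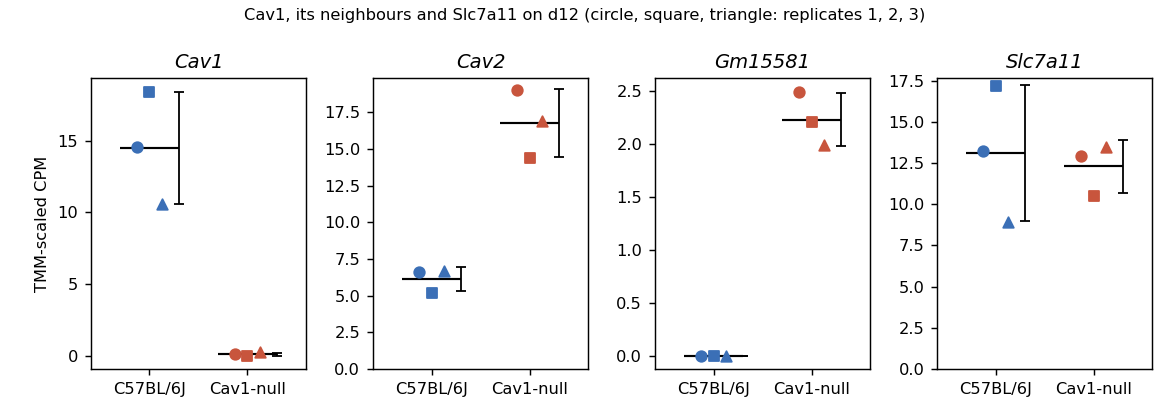
TMM-scaled CPM (y) of Cav1, Cav2, Gm15581 and Slc7a11 in the 3 C57BL/6J (blue) and 3 Cav1-null (red) libraries of d12, with circle, square and triangle for replicates 1 to 3, the mean as a horizontal line and the SD as a bar. Cav1 is at 0 to 0.212 CPM in Cav1-null, Cav2 and Gm15581 are higher in every Cav1-null library than in any C57BL/6J library, and the 2 groups overlap for Slc7a11.

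Across all genes, none passed an adjusted p under 0.05 by the quasi-likelihood test of edgeR (0 of 19475 genes, 0%). The smallest adjusted p was 0.0623, and 674 genes were under 0.1. At an unadjusted p under 0.05 there were 1663 genes higher (8.54% of those tested) and 2626 lower (13.5%) in Cav1-null, so 38.8% of these genes were higher; with library sizes alone as scaling the share was 50.7%. Of these genes, 1546 and 2312 had no overlap between the groups, and 13.5% and 16.3% of all tested genes had none in the same directions. DESeq2 called 576 genes higher (2.96%) and 1468 lower (7.54%), and the likelihood ratio test of edgeR called 340 higher (1.75%) and 929 lower (4.77%). These tools shared 1082 calls, which is 52.9% of those of DESeq2 and 85.3% of those of the likelihood ratio test. The quasi-likelihood count turned on 1 library: without C57BL/6J replicate 3 it called 379 genes higher and 1640 lower of 20347 tested. Without the library that held Y-linked reads it called 0. Of the 19466 genes tested both with and without that library, 749 were then higher (3.85%) and 2017 lower (10.4%) at an unadjusted p under 0.05. Since the main test called none, genes below are described by their values, and "higher" and "lower" in a count mean an unadjusted p under 0.05, to be read against 8.54% and 13.5%. Counts without a library are read against the shares of all genes in the same fit, which were 6.64% higher and 11.1% lower, 5.02% higher and 11.6% lower, and 10.6% higher and 17.4% lower without C57BL/6J replicates 1 to 3, and 5.11% higher and 12.5% lower, 3.85% higher and 10.4% lower, and 8.40% higher and 12.5% lower without Cav1-null replicates 1 to 3.

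The direction of the fold change went with the base composition of the gene. The tested genes were put in 5 equal bins. In the bin with the lowest GC content in the exons (28.3% to 43.2%), the median log2 fold change was 0.33, with 798 genes higher and 20 lower. In the bin with the highest GC content (54.2% to 78.3%) it was -0.35, with 93 higher and 1237 lower. The bins between them had medians of 0.13, -0.03 and -0.17. Across bins of exon length the medians ran from 0.24 in the shortest to -0.07 in the longest. The order over GC content was the same on d15, from 0.51 to -0.52, and on d17, from 0.19 to -0.27, in libraries that share no sample with d12. Once each library's trend with GC content and length was taken out, there were 1307 genes higher (6.71%) and 1248 lower (6.41%), the quasi-likelihood test called 0, and DESeq2 called 225 higher (1.16%) and 221 lower (1.13%). Of these DESeq2 calls, 338 were shared with the uncorrected ones, 75.8% of the corrected and 16.5% of the uncorrected. The cause of the trend was not tested, and values with it removed are called corrected below, where corrected counts are read against 6.71% and 6.41%.

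**Figure D3:**
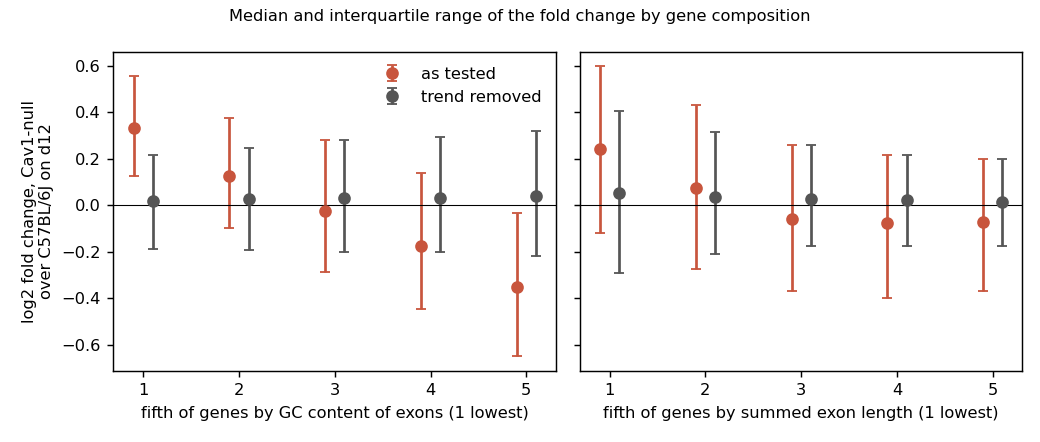
Median log2 fold change of Cav1-null over C57BL/6J on d12 (y), with bars for the interquartile range, in 5 equal bins of the tested genes by exon GC content (left) and summed exon length (right). As tested (red), the medians run from 0.33 at the lowest to -0.35 at the highest GC content, and with the trend removed (grey) no bin of either property exceeds 0.051.

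Reads at Lars2 and Mir6236, loci known to hold sequence that resembles ribosomal RNA, were lower in every Cav1-null library. Lars2, the gene of a mitochondrial leucyl-tRNA synthetase, measured 1009, 443 and 482 CPM in C57BL/6J and 90.03, 148 and 74.3 CPM in Cav1-null (log2 fold change -2.63, SE 0.40, DESeq2 adjusted p 8.33e-10). Mir6236 measured 624, 280 and 301 CPM against 44.5, 78.5 and 33.4 CPM (log2 fold change -2.95, SE 0.44). C57BL/6J replicate 1 was the highest library at both. Their log2 fold changes were -3.48 and -3.98 on d15, and -2.10 and -2.45 on d17. On d17 the groups overlapped, with Lars2 at 379.9, 37.1 and 363 CPM in C57BL/6J and 111, 41 and 29.3 CPM in Cav1-null and Mir6236 at 229, 13.3 and 229 against 64.4, 13.1 and 9.07 CPM, so C57BL/6J replicate 2 lay among the Cav1-null libraries. Whether ribosomal RNA was carried over into the libraries was not tested.

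Most genes of the ribosome itself were higher in Cav1-null. Of 76 cytosolic ribosomal protein genes, all tested, 60 were higher and 0 lower, and DESeq2 called 55 higher. The median log2 fold change was 0.63 beside 0.02 over all genes, and the corrected median was 0.59, with 62 higher. Rps29, a protein of the small subunit, measured 161, 120.2 and 169 CPM in C57BL/6J and 259, 285 and 289 CPM in Cav1-null (log2 fold change 0.89, SE 0.17, DESeq2 adjusted p 0.000188). Rpl38 of the large subunit measured 122, 91.4 and 139.6 CPM against 206, 229.8 and 241 CPM (log2 fold change 0.94, SE 0.18). Rpl21 measured 388, 337 and 435 CPM against 672, 799.6 and 655 CPM (log2 fold change 0.87, SE 0.17). For each of the 3 genes the lowest Cav1-null library lay above the highest C57BL/6J library. Rpl29 measured 98.4, 322 and 278 CPM against 569, 641 and 494 CPM (log2 fold change 1.29, SE 0.40), with C57BL/6J replicate 1 far below the others. Ribosomal protein genes have many processed pseudogenes, and how reads that fit several copies were counted is not given in the sources used here. Together the genes took 2.33% to 3.81% of the reads in C57BL/6J and 4.54% to 5% in Cav1-null. Without the library that held Y-linked reads, 44 of the 76 were higher with a median of 0.53. Without C57BL/6J replicate 3 there were 69, with a median of 0.76. On d15 the median was 1.33 and 75 of 76 were called higher by quasi-likelihood, where 26.8% of all genes were, and on d17 it was 0.37 with none called, where 0.00491% of all genes were.

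Genes that build ribosomes had both higher and lower members. Of 35, 3 were higher and 9 lower, with a median of -0.15. The ribosome building list had a median of -0.17 with 8 higher and 10 lower without C57BL/6J replicate 3, -0.22 with 1 higher and 9 lower without Cav1-null replicate 2, and -0.056 with 4 higher and 5 lower without Cav1-null replicate 3, while the corrected median was -0.0096 with 1 higher and 7 lower. Rrp12, which acts in the export of ribosomal subunits, measured 24.2, 39.9 and 23.1 CPM in C57BL/6J and 16, 16.7 and 13.7 CPM in Cav1-null (log2 fold change -0.91, SE 0.23, corrected -0.55). Nop10, a small protein of the particles that modify ribosomal RNA, measured 33.1, 27.6 and 41.9 CPM against 52.5, 57.9 and 47 CPM (log2 fold change 0.62, SE 0.18, corrected 0.19).

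Respiratory chain genes of the mitochondrial and the nuclear genome were higher in part. Of 8 mitochondrially encoded genes tested, 7 were higher and 0 lower, with a median of 0.78. mt-Nd4, a subunit of complex I, measured 904, 725 and 986 CPM in C57BL/6J and 1539.5, 1654 and 1362 CPM in Cav1-null (log2 fold change 0.80, SE 0.18, corrected 0.011). mt-Co1, the catalytic core of complex IV, measured 6097, 4434 and 7047 CPM against 10919, 12581 and 9446 CPM. Neither gene's groups overlapped. The corrected median of the list was -0.005 with 0 genes higher. Of 28 nuclear genes of the chain, 13 were higher and 1 lower with a median of 0.33, and the corrected median was 0.25 with 13 higher. Ndufa1, a complex I subunit, measured 25.4, 22.4 and 28.9 CPM against 36.5, 46.8 and 50.9 CPM (log2 fold change 0.81, SE 0.17, corrected 0.60). The nuclear list had a median of 0.19 with 8 higher and 1 lower without Cav1-null replicate 2.

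**Figure D4:**
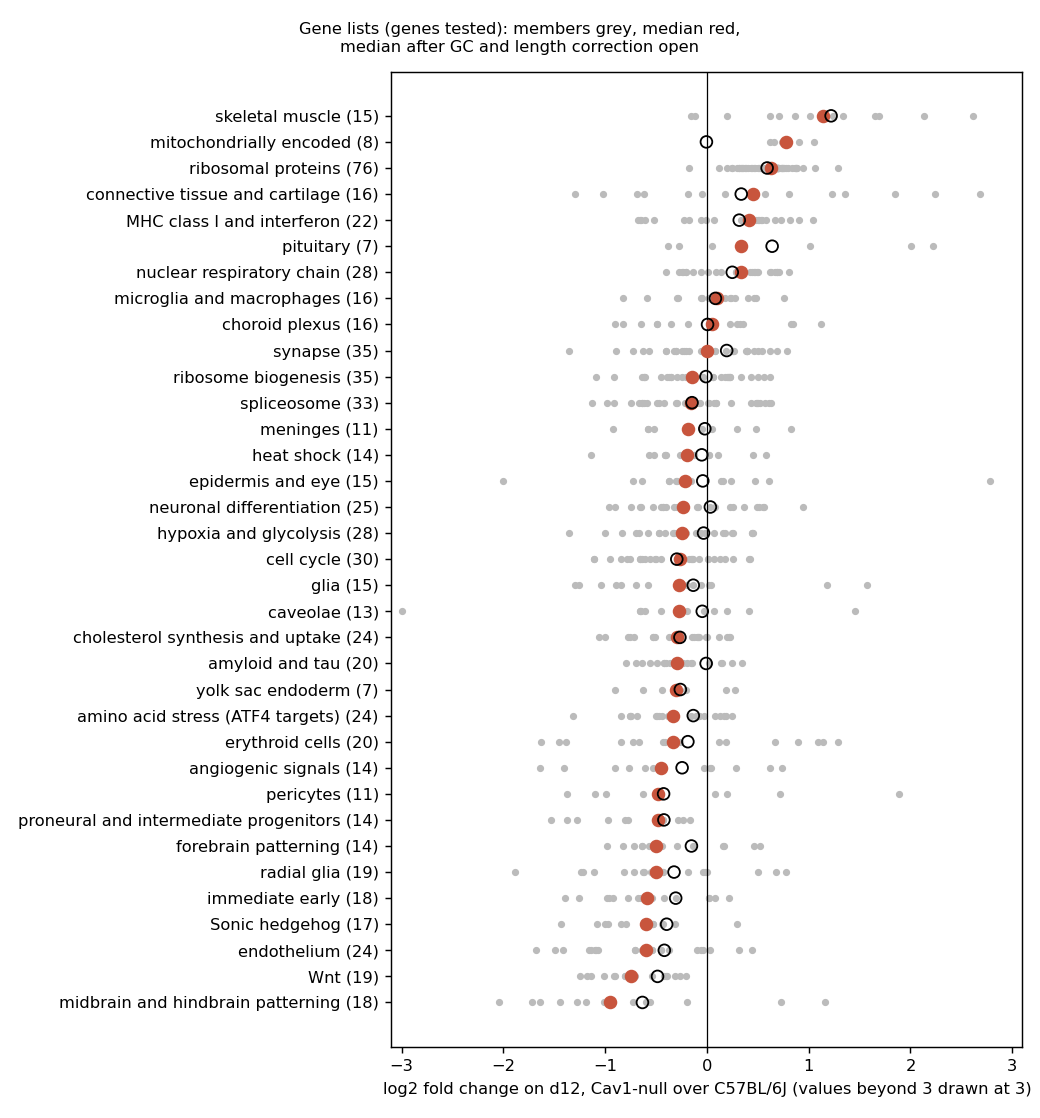
Log2 fold changes of Cav1-null over C57BL/6J on d12 (x) for gene lists with at least 7 tested genes (y, number tested in brackets), with members in grey, the median in red and the corrected median as an open circle; values beyond 3 are drawn at 3. Ribosomal proteins have a median of 0.63 and a corrected one of 0.59, mitochondrially encoded genes have 0.78 and -0.0050, and the Wnt and endothelium lists lie at -0.75 and -0.60.

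Endothelial genes were lower more often than the background. Of 24 markers, 0 were higher and 12 lower, with a median log2 fold change of -0.60 and a corrected median of -0.42 with 8 lower. DESeq2 called 9 lower, and 3 after correction. Plvap, the diaphragm protein of fenestrae and caveolae, measured 8.46, 12.4 and 8.04 CPM in C57BL/6J and 3.28, 2.90 and 4.65 CPM in Cav1-null (log2 fold change -1.41, SE 0.29, DESeq2 adjusted p 0.000804). Tie1, a receptor of the angiopoietin system, measured 20.6, 32.4 and 22.6 CPM against 12.1, 8.90 and 14.4 CPM (log2 fold change -1.09, SE 0.25, corrected -0.63). Cdh5, the cadherin of endothelial junctions, named after its value was seen, measured 18.1, 57.7 and 22.6 CPM against 8.17, 7.54 and 15 CPM (log2 fold change -1.68, SE 0.49). C57BL/6J replicate 2 was the highest library for each of these, Cav1-null replicate 3 was the highest of its group, and the groups did not overlap. Summed over the list without TMM scaling, the levels were 315, 481 and 325 CPM in C57BL/6J and 209, 179 and 347 CPM in Cav1-null. The overlap of these sums held without TMM scaling only. It came through Cav1-null replicate 3, which had the largest TMM factor (1.117). Without that library 15 genes were lower. The endothelial list had a median of -0.46 with 0 higher and 7 lower without C57BL/6J replicate 2, -0.58 with 0 higher and 7 lower without Cav1-null replicate 1, and -0.49 with 0 higher and 7 lower without Cav1-null replicate 2. Emcn, Erg and Ocln had positive log2 fold changes (0.44, 0.03 and 0.32), none past the unadjusted threshold. On d15 20 of the 24 were called lower by quasi-likelihood, where 31.6% of all genes were. On d17 none was, where 0.0442% of all genes were, and the median was -0.63.

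Of 11 pericyte markers, 1 was higher (Rgs5) and 2 were lower (Pdgfrb and Notch3), with a median of -0.48. Notch3, the Notch receptor of mural cells that neural progenitors also express, measured 116, 169 and 162 CPM in C57BL/6J and 58.3, 58.6 and 54.9 CPM in Cav1-null (log2 fold change -1.38, SE 0.17, DESeq2 adjusted p 1.53e-08, corrected -0.75). The Cav1-null libraries lay close together and all at or under 58.6 CPM. The pericyte list had a median of -0.54 with 1 higher and 4 lower without C57BL/6J replicate 1, -0.18 with 1 higher and 1 lower without C57BL/6J replicate 2, and -0.78 with 0 higher and 4 lower without Cav1-null replicate 3, while the corrected median was -0.43 with 0 higher and 1 lower. Of 14 angiogenic signals, 0 were higher and 5 lower, with a median of -0.45. The angiogenic list had a median of -0.30 with 0 higher and 4 lower without C57BL/6J replicate 2, -0.45 with 1 higher and 3 lower without Cav1-null replicate 2, and -0.30 with 0 higher and 5 lower without Cav1-null replicate 3, while the corrected median was -0.24 with 0 higher and 3 lower. Flt4, a receptor of vascular endothelial growth factors, measured 5.24, 8.85 and 5.81 CPM against 1.46, 1.86 and 3.03 CPM (log2 fold change -1.64, SE 0.36). Epas1, a hypoxia-inducible factor typical of endothelium, measured 20.8, 45.4 and 17 CPM against 9.41, 9.03 and 12.9 CPM (log2 fold change -1.41, SE 0.37). Col4a1 and Col4a2, the collagens of the vessel basement membrane, were led by 1 library on d12, though their groups did not overlap. Col4a1 measured 89.3, 474 and 132 CPM against 39.7, 37.2 and 55.7 CPM (log2 fold change -2.39, SE 0.67), with C57BL/6J replicate 2 far above the others, and Col4a2 measured 51.6, 276 and 82.1 CPM against 27.2, 23 and 38.2 CPM (log2 fold change -2.21, SE 0.66, corrected -1.40). On d15 Col4a1 measured 440, 267 and 351 CPM against 32.5, 33.3 and 29.6 CPM. Its groups overlapped on d17, at 348, 62.4 and 85 CPM against 57.8, 63.8 and 56.2 CPM. Cd248, an antigen of mural and stromal cells, measured 8.20, 24.4 and 13.6 CPM against 2.53, 3.60 and 5.20 CPM (log2 fold change -2.02, SE 0.43).

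Radial glial genes were lower more often than higher. Of 19, 3 were higher and 7 lower, with a median of -0.50 (corrected -0.32 with 1 higher and 4 lower). The radial glial list had a median of -0.30 with 3 higher and 5 lower without Cav1-null replicate 3. Nes, the intermediate filament nestin, measured 332, 559 and 459 CPM in C57BL/6J and 229, 222 and 132 CPM in Cav1-null (log2 fold change -1.21, SE 0.26, DESeq2 adjusted p 0.00106, corrected -0.76). Sox3, a factor that keeps progenitors undifferentiated, measured 55.9, 106 and 55.4 CPM against 24.9, 24.8 and 9.21 CPM (log2 fold change -1.89, SE 0.44). Both were lowest in Cav1-null replicate 3. Fabp7, the fatty acid binding protein of radial glia, went the other way, at 432, 337 and 396 CPM against 596, 781 and 619 CPM (log2 fold change 0.78, SE 0.18, corrected 0.056). The other higher genes were Dbi (log2 fold change 0.68, corrected 0.73) and Ptn (log2 fold change 0.50, corrected 0.32).

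Of 14 proneural and intermediate progenitor genes, 0 were higher and 7 lower, and all had negative fold changes (median -0.48, corrected -0.42). Dll3, a Notch ligand of newborn neurons, measured 47.4, 64.5 and 59.6 CPM in C57BL/6J and 22.6, 28.2 and 15.4 CPM in Cav1-null (log2 fold change -1.37, SE 0.23, DESeq2 adjusted p 7.15e-05). The proneural factor Neurog1 measured 8.88, 20.02 and 24.4 CPM against 7.31, 6.63 and 4.49 CPM (log2 fold change -1.53, SE 0.38). The groups did not overlap for either gene, and Cav1-null replicate 3, the library with Hox and muscle RNA, was the lowest for both. The proneural list had a median of -0.88 with 0 higher and 9 lower without Cav1-null replicate 1, and -0.26 with 0 higher and 6 lower without Cav1-null replicate 3.

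Of 30 cell cycle genes, 0 were higher and 12 lower, with a median of -0.27 and a corrected median of -0.30. Mcm3, of the replicative helicase, measured 72.9, 120.3 and 91.9 CPM in C57BL/6J and 56.8, 43.7 and 32 CPM in Cav1-null (log2 fold change -1.11, SE 0.25). The mitotic kinase gene Plk1 measured 50.1, 58.1 and 49.9 CPM against 33.8, 24 and 15.7 CPM (log2 fold change -1.11, SE 0.26). Cav1-null replicate 3 was again the lowest library for both. The cell cycle list ran from a median of -0.49 with 0 higher and 14 lower without Cav1-null replicate 1 to -0.044 with 2 higher and 9 lower without Cav1-null replicate 3, and leaving out 1 library gave 0 to 2 higher and 8 to 14 lower.

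Genes of differentiated neurons showed no common direction. Of 25 neuronal differentiation genes, 2 were higher and 0 lower, with a median of -0.23 and a corrected median of 0.034. Stmn2, a tubulin-binding protein of growing axons, measured 509, 553 and 453 CPM in C57BL/6J and 617, 868 and 741 CPM in Cav1-null (log2 fold change 0.55, SE 0.18, corrected 0.29). Of 35 synapse genes, 4 were higher and 3 lower, with a median of -0.0039. Gria4, a subunit of the AMPA receptor, measured 55.1, 50.6 and 41.8 CPM against 62.4, 72.2 and 80.1 CPM (log2 fold change 0.54, SE 0.16, corrected 0.32), without overlap. Syn1, a synaptic vesicle protein, measured 50.4, 93.5 and 24 CPM against 25, 22.4 and 18.2 CPM (log2 fold change -1.36, SE 0.45), with overlapping groups. C57BL/6J replicate 3 held the least synaptic RNA, with a summed level, without TMM scaling, of 2111 CPM against 3376 to 3689 in the other libraries. The synapse list ran from a median of -0.31 with 4 higher and 14 lower without C57BL/6J replicate 3 to 0.18 with 6 higher and 1 lower without C57BL/6J replicate 2, and leaving out 1 library gave 2 to 7 higher and 0 to 14 lower, while the corrected median was 0.19 with 2 higher and 1 lower. The neuronal differentiation list ran from a median of -0.54 with 1 higher and 9 lower without C57BL/6J replicate 3 to 0.01 with 3 higher and 0 lower without C57BL/6J replicate 2, and leaving out 1 library gave 0 to 3 higher and 0 to 9 lower. Of 15 glial genes 1 was lower, Sox9, a factor of progenitors and glia, at 85.9, 140.1 and 81.1 CPM against 60.8, 49.2 and 39.7 CPM (log2 fold change -1.04, SE 0.25, corrected -1.01), and the median was -0.28. The glial list ran from a median of -0.63 with 0 higher and 6 lower without C57BL/6J replicate 3 to -0.12 with 0 higher and 1 lower without C57BL/6J replicate 2, and leaving out 1 library gave 0 to 2 higher and 1 to 6 lower, while the corrected median was -0.13 with 0 higher and 1 lower.

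Regional patterning genes varied between libraries of 1 strain. Of 18 midbrain and hindbrain genes, 0 were higher and 6 lower, with a median of -0.95 (corrected -0.63 with 3 lower). Without TMM scaling the list summed to 196, 593 and 672 CPM in C57BL/6J and to 195, 234 and 385 CPM in Cav1-null, so C57BL/6J replicate 1 was level with Cav1-null replicate 1. The midbrain and hindbrain list had a median of -1.26 with 0 higher and 12 lower without C57BL/6J replicate 1, -0.75 with 0 higher and 3 lower without C57BL/6J replicate 2, and -1.60 with 0 higher and 6 lower without Cav1-null replicate 3. Pax7, a factor of the dorsal midbrain, measured 16.1, 56.1 and 35.6 CPM against 9.73, 11.8 and 11.1 CPM (log2 fold change -1.72, SE 0.40). Wnt1, the signal of the midbrain-hindbrain border, measured 1.16, 3.78 and 3.92 CPM against 0.571, 0.410 and 1.14 CPM. Of 14 forebrain genes 1 was lower, Otx1, at 68.1, 84.3 and 82.6 CPM against 50.6, 45.5 and 23 CPM (log2 fold change -0.98, SE 0.27, corrected -0.56), and the median was -0.50. The forebrain list ran from a median of -0.94 with 0 higher and 1 lower without Cav1-null replicate 1 to 0.022 with 1 higher and 1 lower without C57BL/6J replicate 1, and leaving out 1 library gave 0 to 1 higher and 1 lower, while the corrected median was -0.15 with 0 higher and 0 lower. Of 25 Hox genes 1 was tested, Hoxa2, whose log2 fold change of 3.29 was 0.12 without Cav1-null replicate 3.

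The Sonic hedgehog pathway patterns the ventral neural tube through the receptor Ptch1 and the Gli factors, and Wnt signalling patterns the dorsal tube through Lef1 and its partners. Both lists were lower more often than the background. Of 17 Sonic hedgehog genes, 0 were higher and 9 lower, with a median of -0.60 (corrected -0.40 with 4 lower) and 7 called lower by DESeq2 (2 after correction). Gli2, the main activator, measured 36.5, 57.8 and 49.9 CPM in C57BL/6J and 23, 14.8 and 15.5 CPM in Cav1-null (log2 fold change -1.44, SE 0.23, corrected -0.88, DESeq2 adjusted p 6e-05). The co-receptor Gas1 measured 70.1, 84.9 and 97.7 CPM against 50.3, 50.3 and 44.7 CPM (log2 fold change -0.80, SE 0.16, corrected -0.46). Gli3, which acts mostly as a repressor, measured 99.9, 137 and 118 CPM against 72.9, 56 and 38.8 CPM (log2 fold change -1.08, SE 0.23). None of the 3 genes' groups overlapped.

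Of 19 Wnt genes, 0 were higher and 11 lower, with a median of -0.75 (corrected -0.49 with 6 lower) and 8 called lower by DESeq2 (2 after correction). Axin2, a target and feedback inhibitor of the pathway, measured 75, 97.5 and 97.7 CPM in C57BL/6J and 56.7, 48.8 and 55.5 CPM in Cav1-null (log2 fold change -0.75, SE 0.15, corrected -0.23). Lef1 measured 18.2, 40.1 and 30.3 CPM against 13.9, 14.8 and 11.4 CPM (log2 fold change -1.14, SE 0.28, corrected -0.97). The groups did not overlap for either gene. Without the library that held Y-linked reads 9 of the Sonic hedgehog and 9 of the Wnt genes were lower. Over the 6 ways of leaving out a library the Sonic hedgehog median lay between -0.70 and -0.52 and the Wnt median between -0.87 and -0.61. On d15, where 31.6% of all genes were called lower, 14 and 15 of these genes were, and on d17, where 0.0442% were, none was, with medians of -0.39 and -0.49.

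**Figure D5:**
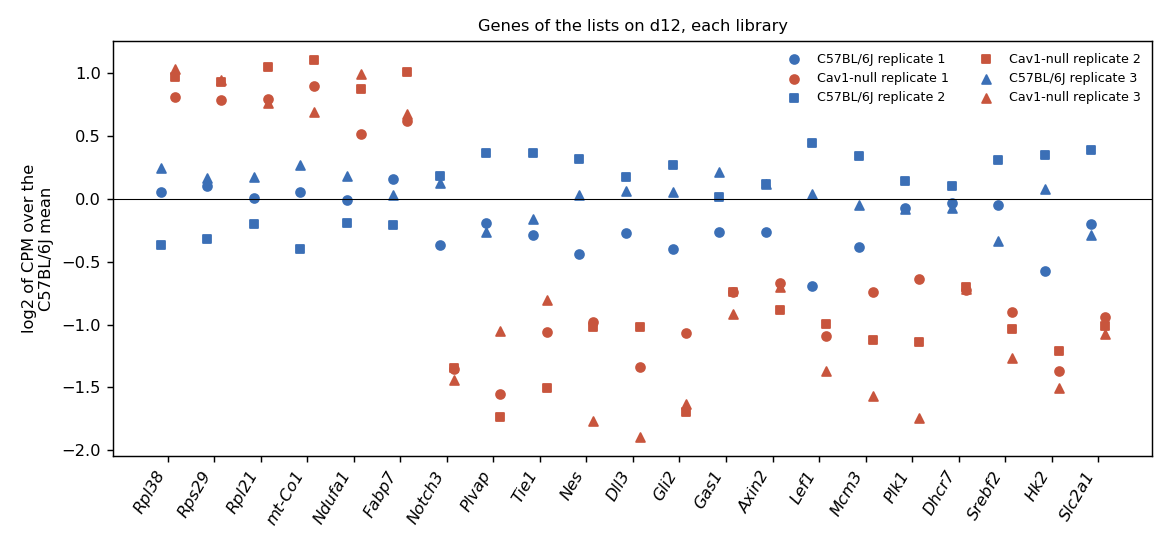
Log2 of the TMM-scaled CPM of each library over the C57BL/6J mean (y) for genes described in the text (x), in blue for C57BL/6J and in red for Cav1-null, with replicates 1 to 3 as circle, square and triangle. The first 6 genes, Rpl38 to Fabp7, lie above the C57BL/6J libraries in all Cav1-null libraries and the others below them, and Cav1-null replicate 3 is the lowest library for Nes, Dll3 and Plk1.

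Genes of sterol synthesis and uptake included several lower genes with little spread. Of 24, 0 were higher and 8 lower, with a median of -0.29 and a corrected median of -0.27. Dhcr7, an enzyme of the last steps to cholesterol, measured 61.9, 67.9 and 60.1 CPM in C57BL/6J and 38.4, 38.9 and 38.6 CPM in Cav1-null (log2 fold change -0.71, SE 0.12, corrected -0.47, DESeq2 adjusted p 0.000223). Srebf2, the transcription factor of the pathway, measured 303, 389 and 249 CPM against 168, 153 and 131 CPM (log2 fold change -1.06, SE 0.19, corrected -0.49). The groups did not overlap for either gene. Fasn, the fatty acid synthase and no member of the list, measured 322, 728 and 308 CPM against 141, 143 and 119 CPM (log2 fold change -1.75, SE 0.34, corrected -0.97).

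Of 28 hypoxia and glycolysis genes, 1 was higher and 9 lower, with a median of -0.24 and a corrected median of -0.033 with 4 lower. Hk2, a hexokinase, measured 15.7, 29.8 and 24.6 CPM in C57BL/6J and 9.06, 10.1 and 8.23 CPM in Cav1-null (log2 fold change -1.36, SE 0.25, DESeq2 adjusted p 0.000235). Slc2a1, the glucose transporter of the vessel wall and of glia, measured 63.8, 96.3 and 60.2 CPM against 38.3, 36.5 and 34.9 CPM (log2 fold change -1.01, SE 0.19). The hypoxia and glycolysis list had a median of -0.30 with 3 higher and 10 lower without C57BL/6J replicate 3. Of 24 amino acid stress genes, targets of ATF4, 0 were higher and 9 lower (median -0.33, corrected -0.13 with 4 lower). Mars1, the methionyl-tRNA synthetase, measured 77.1, 93.7 and 110 CPM against 60.9, 58.5 and 54.5 CPM (log2 fold change -0.69, SE 0.16). Slc7a5, the large neutral amino acid transporter, measured 64, 114 and 40.1 CPM against 33.2, 30.2 and 24 CPM (log2 fold change -1.32, SE 0.35).

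Of 33 spliceosome genes 5 were higher and 12 lower, with a median of -0.15. The spliceosome list ran from a median of -0.24 with 1 higher and 13 lower without Cav1-null replicate 2 to -0.053 with 7 higher and 9 lower without Cav1-null replicate 3, and leaving out 1 library gave 1 to 7 higher and 9 to 13 lower, while the corrected median was -0.15 with 5 higher and 10 lower. Sf3a1, of the complex that reads the branch point, measured 136, 210.1 and 125 CPM in C57BL/6J and 92.2, 83 and 63.6 CPM in Cav1-null (log2 fold change -0.98, SE 0.23), and Prpf8, at the core of the spliceosome, measured 307, 549 and 265 CPM against 203, 175 and 134 CPM (log2 fold change -1.13, SE 0.29). Of 18 immediate early genes 0 were higher and 8 lower (median -0.59, corrected -0.31 with 4 lower). Jun measured 54.1, 82.3 and 46.6 CPM against 38.8, 34.4 and 23.7 CPM (log2 fold change -0.92, SE 0.26), while Egr1 was under 5 CPM in all libraries (log2 fold change -1.26, SE 0.35, corrected -0.80). Of 20 amyloid and tau genes 1 was higher and 5 lower (median -0.30, corrected -0.0079 with 0 higher and 6 lower). The amyloid and tau list had a median of -0.17 with 0 higher and 4 lower without C57BL/6J replicate 2, and -0.46 with 0 higher and 11 lower without C57BL/6J replicate 3. Ncstn, a subunit of gamma-secretase, measured 109, 126 and 87.4 CPM against 74.5, 71.6 and 61.1 CPM (log2 fold change -0.64, SE 0.17), and App, the amyloid precursor, 243, 410.2 and 182 CPM against 157, 166 and 159.6 CPM (log2 fold change -0.79, SE 0.27). Heat shock genes had 1 higher, Hspe1 (log2 fold change 0.58, SE 0.21, corrected 0.33), and 2 lower of 14, with a median of -0.20. The heat shock list had a median of -0.052 with 2 higher and 2 lower without C57BL/6J replicate 3, while the corrected median was -0.051 with 1 higher and 0 lower. The MHC class I and interferon genes had 0 higher and 1 lower of 22, namely Tapbp, which loads peptides on MHC class I (log2 fold change -0.52, SE 0.17, corrected -0.11), with a median of 0.41. The interferon list had a median of 0.11 with 0 higher and 2 lower without C57BL/6J replicate 1, and 0.026 with 0 higher and 2 lower without Cav1-null replicate 3, while the corrected median was 0.32 with 1 higher and 0 lower.

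Markers of blood and of tissues outside the brain wall varied with single libraries. Of 20 erythroid genes, 3 were higher, the adult-type globin genes Hba-a1, Hba-a2 and Hbb-bt, and 0 lower. Hbb-bt measured 117, 126 and 109 CPM in C57BL/6J and 324, 251 and 173 CPM in Cav1-null (log2 fold change 1.09, SE 0.22), and Hba-a2 153, 91.7 and 155 CPM against 342, 307 and 229.7 CPM (log2 fold change 1.14, SE 0.24). The median of the list was -0.33. The erythroid list had a median of -0.65 with 2 higher and 1 lower without C57BL/6J replicate 1, -0.68 with 4 higher and 0 lower without C57BL/6J replicate 2, and 1.00 with 14 higher and 0 lower without C57BL/6J replicate 3, while the corrected median was -0.19 with 3 higher and 0 lower. Of 15 skeletal muscle genes 4 were higher with a median of 1.14. The muscle list ran from a median of 0.38 with 1 higher and 1 lower without Cav1-null replicate 3 to 1.46 with 6 higher and 0 lower without Cav1-null replicate 1, and leaving out 1 library gave 1 to 6 higher and 0 to 1 lower, while the corrected median was 1.22 with 3 higher and 0 lower. Myl1, a myosin light chain of fast muscle, measured 0.0965, 0.580 and 0.357 CPM against 0.963, 1.10 and 4.30 CPM. Of 16 connective tissue and cartilage genes 1 was lower, Col2a1, the cartilage collagen (log2 fold change -0.61, SE 0.23, corrected -0.0042), with overlapping groups; the median was 0.46. The connective tissue list ran from a median of -0.60 with 0 higher and 4 lower without Cav1-null replicate 3 to 1.32 with 0 higher and 0 lower without C57BL/6J replicate 3, and leaving out 1 library gave 0 to 3 higher and 0 to 4 lower, while the corrected median was 0.34 with 0 higher and 0 lower. Of 16 microglia and macrophage genes 1 was lower, Csf1r, at 10.5, 21.9 and 12.8 CPM against 7.20, 6.88 and 11.4 CPM, and the median was 0.099. The microglia list ran from a median of -0.26 with 0 higher and 3 lower without Cav1-null replicate 3 to 0.25 with 0 higher and 0 lower without Cav1-null replicate 2, and leaving out 1 library gave 0 to 2 higher and 0 to 3 lower, while the corrected median was 0.083 with 0 higher and 0 lower.

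Of the remaining lists, choroid plexus had 1 lower gene of 16 (Foxj1, log2 fold change -0.65, SE 0.22, corrected -0.18), epidermis and eye 1 higher of 15 (Six6, log2 fold change 2.79, SE 1.02) and pituitary 1 higher of 7 (Tshb, log2 fold change 2.01, SE 0.66). None of 11 meninges and 7 yolk sac endoderm genes passed the unadjusted threshold, the smallest p being those of Col15a1 (log2 fold change -0.92, SE 0.52, corrected -0.45) and Cubn (log2 fold change -0.63, SE 0.30). Their medians were 0.054, -0.21, 0.34, -0.19 and -0.30, in this order. The choroid plexus list ran from a median of -0.44 with 0 higher and 4 lower without Cav1-null replicate 3 to 0.22 with 0 higher and 0 lower without Cav1-null replicate 1, and leaving out 1 library gave 0 to 1 higher and 0 to 4 lower, while the corrected median was 0.006 with 0 higher and 0 lower. The epidermis and eye list ran from a median of -1.24 with 1 higher and 3 lower without Cav1-null replicate 3 to 0.17 with 0 higher and 0 lower without Cav1-null replicate 2, and leaving out 1 library gave 0 to 1 higher and 0 to 3 lower, while the corrected median was -0.041 with 1 higher and 0 lower. The pituitary list ran from a median of -0.22 with 2 higher and 0 lower without C57BL/6J replicate 1 to 0.75 with 0 higher and 1 lower without C57BL/6J replicate 2, and leaving out 1 library gave 0 to 2 higher and 0 to 1 lower, while the corrected median was 0.64 with 2 higher and 0 lower. The meninges list ran from a median of -0.59 with 0 higher and 4 lower without Cav1-null replicate 3 to 0.059 with 0 higher and 0 lower without Cav1-null replicate 2, and leaving out 1 library gave 0 to 1 higher and 0 to 4 lower, while the corrected median was -0.021 with 0 higher and 0 lower. The yolk sac list ran from a median of -0.75 with 0 higher and 0 lower without Cav1-null replicate 3 to 0.023 with 0 higher and 0 lower without C57BL/6J replicate 1, and leaving out 1 library gave 0 higher and 0 lower, while the corrected median was -0.26 with 0 higher and 0 lower. Of 17 trophoblast and decidua markers 3 were tested and none passed, with a median of -3.53. The trophoblast list had a median of 2.69 with 0 higher and 0 lower without C57BL/6J replicate 3, while the corrected median was -3.97 with 0 higher and 0 lower. The trophoblast gene Tpbpb measured 17.7 CPM in C57BL/6J replicate 3 and 0 to 0.473 CPM in the other libraries.

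Of the DESeq2 calls whose mean log2 CPM was 1 or more and whose groups did not overlap, the 12 highest and the 12 lowest fold changes were read. After Cav2 the highest was Plac9a, a small secreted protein gene, at 3.51, 2.29 and 3.21 CPM in C57BL/6J and 4.71, 5.14 and 13.6 CPM in Cav1-null (log2 fold change 1.38, SE 0.44). Dynlt1a, a dynein light chain, measured 6.27, 12 and 21.5 CPM against 28.5, 33.4 and 27.2 CPM (log2 fold change 1.17, SE 0.39). Hopx, a homeodomain protein of stem cells, measured 3.06, 3.72 and 1.75 CPM against 5.53, 5.52 and 7.75 CPM (log2 fold change 1.14, SE 0.33). Smim18, Zfp455, Mgat4c, Eps8l1, Gm17750 and Hbb-bs had log2 fold changes of 1.09, 1.17, 1.12, 1.24, 1.15 and 1.29, and Rpl29 and Hba-a2 complete the higher genes. The lowest were Cav1, Tmem181c-ps, Mir6236, Lars2, 7SK, Col4a1, Col4a2, Cd248, Dnah8, Sox3, Gm49980 and Fasn. Dnah8, an axonemal dynein, measured 10.3, 6.90 and 2.76 CPM against 1.25, 1.07 and 2.68 CPM (log2 fold change -1.98, SE 0.54), and the non-coding Gm49980 20.9, 14.4 and 6.49 CPM against 6.42, 3.19 and 1.88 CPM (log2 fold change -1.87, SE 0.55). The annotated gene 7SK, a copy of a small nuclear RNA that holds back transcription elongation, measured 19.7, 4.03 and 13.7 CPM against 2.10, 1.10 and 3.72 CPM (log2 fold change -2.42, SE 0.64), while its log2 fold changes on d15 and d17 were 2.65 (SE 0.77) and 2.53 (SE 1.25). Another tested entry of the same name (ENSMUSG00002076693, chromosome 6) had a log2 fold change of 0.31 (SE 0.59) on d12.

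Some of the widest differences were in pseudogenes, where reads of near-identical copies may be shared. Tmem181c-ps measured 25.2, 8.85 and 1.10 CPM in C57BL/6J and 0.428, 0.442 and 0.239 CPM in Cav1-null (log2 fold change -4.99, SE 1.15, DESeq2 adjusted p 0.000804). Rpsa-ps10 and Rps2-ps10, copies of ribosomal protein genes named after their values were seen, were high in some C57BL/6J libraries only. Rpsa-ps10 measured 181, 0.458 and 207 CPM in C57BL/6J and Rps2-ps10 109, 43.2 and 0.357 CPM, and both were under 1 CPM in all Cav1-null libraries. A gene was described as read in 1 strain only where each library of that strain had at least 0.5 CPM and each of the other at most 3 reads. By that description 3 genes stood out: Gm15581 and Gm45153 in Cav1-null and the pseudogene Gm5503 in C57BL/6J. Gm5503 had 43, 42 and 57 reads in C57BL/6J and 0, 1 and 0 in Cav1-null, on d15 50, 39 and 36 against 1, 0 and 3, and on d17 73, 0 and 3 against 0, 1 and 2. Gm45153 had 2, 2 and 0 reads against 19, 18 and 38, on d15 6, 7 and 9 against 14, 7 and 7, and on d17 20, 32 and 9 against 22, 11 and 39.

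The same strains were compared on the later days in libraries that share no sample with d12. On d15, 11570 of 19827 genes were called (26.8% higher and 31.6% lower), and on d17 10 of 20358 (0.00491% higher and 0.0442% lower). Of the 4289 genes with an unadjusted p under 0.05 on d12, 4230 were tested on d15, where 4163 had the same direction, 3825 were called in that direction and 9 the other way. On d17, 3925 of 4227 had the same direction and 2 were called. Over all genes tested on both days, 80.7% had the same direction on d12 and d15 and 74.9% on d12 and d17. The trend with GC content ran the same way on all 3 days, and its part in this was not tested. The 2 genes called on d17 in the direction of d12 were Cav1 and Gm15581, which were also called on d15. The log2 fold changes of Cav1 were -7.12, -7.49 and -6.51 on the 3 days. At the adjusted threshold no gene was called on all 3 days, since the quasi-likelihood test called 0 on d12. With DESeq2 on all 3 days, 6 genes were called lower on each: Cav1, the apelin receptor Aplnr, the neuronal factor Nhlh1, the large cadherin Fat1, Rps2-ps10 and Tmem181c-ps.

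Whether the strain difference itself differed between days was tested by an interaction term. Between d12 and d15 it differed for 1 of 21191 genes (0.00472%), and 3118 had an unadjusted p under 0.05. That gene was Slc7a11, the cystine transporter that feeds glutathione synthesis. On d12 it measured 13.2, 17.1 and 8.92 CPM in C57BL/6J and 12.9, 10.5 and 13.5 CPM in Cav1-null, with overlapping groups (log2 fold change -0.09, SE 0.26, corrected -0.25). On d15 it measured 126, 119 and 122 CPM in C57BL/6J and 10.9, 11.1 and 12.6 CPM in Cav1-null, and on d17 22.1, 21.2 and 112 CPM against 28.2, 18.1 and 19.3 CPM. The difference of the log2 fold changes, d12 minus d15, was 3.31 (SE 0.26, adjusted p 0.000258 by quasi-likelihood). The count was 0 with all 27 libraries in 1 model, 517 by DESeq2, and 1 to 1716 leaving out 1 library, with 1716 without C57BL/6J d12 replicate 2. Between d12 and d17 it differed for 1 of 21675 genes (0.00461%), and 862 had an unadjusted p under 0.05. It was the pseudogene Rpl34-ps1, with 9, 5 and 8 reads in C57BL/6J and 20, 20 and 11 in Cav1-null on d12, and 132, 339 and 175 against 12, 6 and 11 reads on d17 (difference 5.56, SE 0.66, adjusted p 0.0368 by quasi-likelihood). No gene was called with the replicate block, with all 27 libraries in 1 model, or in 8 of 12 fits that left out 1 library, where the count was 0 to 7 with 7 without C57BL/6J d12 replicate 1, and DESeq2 called 15. Nnt, the mitochondrial transhydrogenase that is disrupted in C57BL/6J, measured 2.73, 2.62 and 3.11 CPM in C57BL/6J and 3.17, 4.10 and 3.19 CPM in Cav1-null (log2 fold change 0.30, SE 0.27).

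Genes that change with age in the brain of AKR/J, the third strain of the series, were chosen as stage genes from libraries outside the comparison. The 1091 tested genes that rose in AKR/J both from d12 to d15 and from d15 to d17 had a median log2 fold change of 0.11 in Cav1-null over C57BL/6J on d12, with 96 higher and 31 lower. The 571 that fell in both steps had a median of -0.19, with 6 higher and 149 lower. Over all genes the median was 0.02, with 8.54% higher and 13.5% lower. The share of rising genes that were higher was thus near that of all genes, and their share of lower genes was below it. Among falling genes the share of lower genes was above that of all genes, and the share of higher genes below it. Against the C57BL/6J mean, the falling genes had median differences of log2(CPM + 0.5) of -0.045, -0.043 and -0.50 in Cav1-null replicates 1 to 3, and the rising genes of 0.087, 0.14 and 0.20, so replicate 3 was the farthest from C57BL/6J in both. The rising list ran from a median of -0.10 with 57 higher and 206 lower without C57BL/6J replicate 3 to 0.23 with 102 higher and 10 lower without C57BL/6J replicate 2, and leaving out 1 library gave 31 to 102 higher and 9 to 206 lower, while the corrected median was 0.21 with 120 higher and 5 lower. The falling list ran from a median of -0.34 with 2 higher and 161 lower without C57BL/6J replicate 2 to -0.031 with 44 higher and 113 lower without C57BL/6J replicate 3, and leaving out 1 library gave 2 to 44 higher and 113 to 165 lower, while the corrected median was -0.22 with 6 higher and 107 lower. Without Cav1-null replicate 3 the medians of the rising and the falling genes were 0.065 and -0.073.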

How the data were processed

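RNA was measured in 3 Cav1-null and 3 C57BL/6J libraries on d12; the 21 other libraries of the series gave the later days and the AKR/J stage genes. Per the study's methods, the authors used FastQC for quality, cutadapt against adaptors and fastp for trimming, aligned to GRCm39 by STAR, and deposited raw read counts per gene and per splice junction. Tool versions, the counting tool, its strand setting and its treatment of reads with several matches are not given in the sources used here. Levels are CPM, and counting noise is smallest for deeply read genes, at 28025320 to 35026178 reads per library.

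Genes were kept by filterByExpr, scaled by TMM and tested with the robust quasi-likelihood test of edgeR 4.0.16 in R 4.3.3, with Benjamini-Hochberg adjusted p under 0.05 as the threshold and the SE taken as the size of the log2 fold change over the root of F. DESeq2 1.42.0 with the Wald test and the likelihood ratio test of edgeR were alternatives, beside other scalings, filters, samples and each library left out. The GC correction and the limits past which a list is given again without a library were chosen after seeing the data. GC content and exon length were taken from the GRCm39 annotation, and each library's trend was fitted by splines with 5 degrees of freedom and removed as offsets. Scripts were tested on simulated data, where DESeq2 and the likelihood ratio test made a larger share of false calls than the quasi-likelihood test. The share of the latter was also above the nominal 0.05. The simulated counts had no trend with GC content and no library that stood apart, so they cannot tell which test is nearer the truth in these data. The quasi-likelihood test was kept as the main test, and the calls of the alternatives are given beside it.

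The gene lists and the genes named were chosen with earlier results of these data known. The rule named Cav1 and the caveolae genes, called genes of large change, for each list its called members of largest change or the member of smallest p, Slc7a11, Nnt and genes called in an interaction test. Since none was called on d12, the DESeq2 calls were read in their place, and further list members of small p were added; these and the genes marked in the text were chosen after values were seen. No figure or value rests on columns outside the samples' labels. Results for some genes are not reported here.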

Additional observations from a re-analysis of the deposited data

Results flagged for a closer look

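The strain difference of Slc7a11 differed between d12 and d15, by 3.31 on the log2 scale for d12 minus d15 (SE 0.26, adjusted p 0.000258 by the edgeR quasi-likelihood interaction test), the 1 call of 21191 genes; with all 27 libraries in 1 model there was none, by DESeq2 there were 517, and leaving out 1 library gave 1 to 1716, the last without C57BL/6J d12 replicate 2. That of the pseudogene Rpl34-ps1 differed between d12 and d17 by 5.56 (SE 0.66, adjusted p 0.0368), the 1 call of 21675 genes; there was none with the replicate block, with all 27 libraries in 1 model, or in 8 of 12 fits that left out 1 library, 7 without C57BL/6J d12 replicate 1, and 15 by DESeq2. With 3 libraries in each group, single libraries were not tested as outliers within a group.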

How the results depend on the processing

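The count of 0 genes called on d12 stayed at 0 with RLE size factors, library sizes alone, TMM without the erythroid list, at least 10 reads in every library, a log2 fold change of at least 1 and GC and length offsets. It was 2044 with DESeq2, 1269 with the likelihood ratio test, 862 with no filter and 1715 with all 27 libraries in 1 model; chosen after seeing the data, an adjusted p under 0.1 gave 674 and the offsets with DESeq2 446. Leaving out 1 library gave 0 to 2019: 1 (Gm3375), 7 and 2019 without C57BL/6J replicates 1, 2 and 3, and 1 (Cav1) without Cav1-null replicate 3. The difference d12 minus d15 was called for 517 genes by DESeq2, 200 by the likelihood ratio test, 34 with no filter and 0 with all 27 libraries, and leave-one-out gave 1 to 1716, the last without C57BL/6J d12 replicate 2. The difference d12 minus d17 was called for 15, 28, 2 and 0 genes, and leave-one-out gave 0 to 7. Genes called on all 3 days numbered 6 with DESeq2, 6 with all 27 libraries (Cav1, Gm15581, Gm6166, Gm5909, Gm7114 and Gm10350), 2 with an unadjusted p under 0.05 on d12, and 0 to 2 leaving out 1 library. The median of the rising stage genes was 0.19 with library sizes alone and -0.10 to 0.23 leaving out 1 library, with -0.10 without C57BL/6J replicate 3. That of the falling stage genes was -0.34 to -0.031, the lowest without C57BL/6J replicate 2 and the highest without C57BL/6J replicate 3. The cause of these changes was not tested.

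With the replicate number as a block, 0 genes were called on d12, with 1401 higher and 2608 lower at an unadjusted p under 0.05; the differences d12 minus d15 and d12 minus d17 were called for 1 and 0 genes. The deviations of same-numbered libraries had correlations of 0.317, -0.00609 and 0.316 over 14219 genes, and C57BL/6J replicate 1 correlated as closely with Cav1-null replicate 2 (0.319), so the numbers were taken as names only.

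Over 144 named genes and 2292 comparisons with an alternative, 1849 kept direction and side of the threshold, 421 passed it in the same direction and 22 turned direction. With offsets the turned values were -0.12 for Cavin4, 0.67 for Pacsin1, 0.17 for Flot1, 0.16 for Flot2, -0.19 for mt-Nd6 and -0.078 for mt-Nd2; with library sizes alone 0.056 for Pacsin1 and 0.0025 for Slc7a11; and with the replicate block -0.0044 for Cavin2 and 0.17 for Pacsin1. Leaving out each library gave -0.75 to 0.80 for Cavin2, -0.43 to 0.45 for Cavin3 and -0.059 to 0.40 for Tes, each lowest without Cav1-null replicate 3; -0.080 to 0.24 for Cavin4 and -0.44 to 0.30 for Pacsin1; -4.81 to 3.16 for Tpbpb, highest without C57BL/6J replicate 3; -0.32 to 0.13 for Slc7a11; -0.93 to 0.13 for Xist, highest without Cav1-null replicate 2; and -0.52 to 0.14 for Met.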
